A study of Mus musculus with 4 samples.

Results

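The Ifitm genes described here are Ifitm6, Ifitm1, Ifitm2 and Ifitm3, 4 of 18193 genes with a single-gene probe set on the arrays, each matched by symbol to exactly 1 probe set. Ifitm6 and Ifitm1 were chosen by their higher MAS5 signals with G-CSF on these same arrays, so their values are given as a description, while Ifitm2 and Ifitm3 were added as relatives and not picked in that way. The samples came from C57BL/6 mice of 2 groups, G-CSF (2 arrays) and PBS (2 arrays), and all the mice had received 30 doses of carbon tetrachloride at 1 ml/kg, a hepatotoxin that scars the liver. The G-CSF mice were given recombinant human granulocyte colony-stimulating factor, a cytokine that drives neutrophil production, at 100 µg/kg for the 7 days before the last dose of the toxin. The PBS mice were given phosphate-buffered saline with mouse serum albumin at 0.1% over those days. The labels call the material cells derived from bone marrow and also liver tissue, they give no sort or gate, age or sex, and they do not say that the arrays came from separate animals, so p-values measure only the spread between these arrays.

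Interferon-induced transmembrane (IFITM) proteins are small membrane proteins that block the entry of enveloped viruses at the point where the viral and the cell membrane fuse. Type I and type II interferons induce the classical members. Ifitm3 sits mainly in endosomes and lysosomes and restricts influenza virus, Ifitm1 is found largely at the cell surface, and Ifitm2 is a close paralogue with an endosomal location. Ifitm6 is a less studied member in the mouse. Ifitm5 belongs to bone-forming cells and is not induced by interferon in the usual way.

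Ifitm6 and Ifitm1 were far higher on both G-CSF arrays than on either PBS array, Ifitm2 was higher by less, and Ifitm3 was not separated between the groups. Ifitm6 (probe set 1440865_at) had MAS5 signals of 17942 and 10442 in G-CSF replicates 1 and 2, against 378 and 279 in PBS replicates 1 and 2. The lower G-CSF signal was 27.6 times the higher PBS signal, and both PBS signals lay above the background limit, the highest signal of 27 bacterial control probe sets, which was 63.0 to 106.4 on the 4 arrays. On the log2(signal + 23) scale used for all differences here, Ifitm6 averaged 13.74 ± 0.55 with G-CSF and 8.44 ± 0.29 with PBS (SD, n = 2 each), a difference of 5.30 ± 0.42 (SE of the limma fit), or 39.4-fold.

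Ifitm1 (1424254_at) had signals of 36586 and 29800 with G-CSF, against 1501 and 4416 with PBS. It averaged 15.01 ± 0.21 with G-CSF and 11.34 ± 1.09 with PBS (SD, n = 2 each), a difference of 3.67 ± 0.56, or 12.7-fold. The groups did not overlap, but the PBS arrays differed by 2.94-fold from each other, so the difference was 4.44 against PBS replicate 1 alone and 2.90 against PBS replicate 2 alone. For Ifitm6 the corresponding values were 5.10 and 5.50, and neither PBS array decided its size. In rank of the difference among 12187 genes tested, Ifitm6 was number 8 and Ifitm1 number 31, positions that follow from how they were chosen.

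Ifitm2 (1417460_at) had signals of 3871 and 3035 with G-CSF, against 681 and 1748 with PBS. All 4 signals were above background and the groups did not overlap, with a difference of 1.63 ± 0.53, or 3.09-fold. The limma adjusted p over all genes was 0.988 (unadjusted 0.0273), so Ifitm2 did not pass. Against PBS replicate 1 alone the difference was 2.29, and against PBS replicate 2 alone it was 0.96. Over the alternative settings the limma adjusted p ran from 0.000806, without PBS replicate 2, to 1.00. In a fit with 1 PBS array the spread comes from the G-CSF pair alone, and the lone PBS array is assumed to vary like it; the pooled SD over all genes was 0.29 with G-CSF and 0.82 with PBS, so the low p does not measure the PBS spread.

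Ifitm3 (1423754_at) had signals of 11017 and 10524 with G-CSF, against 3164 and 14047 with PBS. The G-CSF arrays were alike, and they lay between the PBS arrays, which differed by 4.44-fold. The difference was 0.69 ± 0.73 and did not pass (limma adjusted p = 0.988, unadjusted 0.386). Its direction depended on the PBS array: it was 1.76 against PBS replicate 1 alone, and -0.38 against PBS replicate 2 alone. With PBS replicate 2 left out the limma adjusted p was 0.000685, with PBS replicate 1 left out it was 0.274, and the range over the alternatives was 0.000685 to 1.00. Here too the fits with 1 PBS array take their spread from the G-CSF pair.

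**Figure D1:**
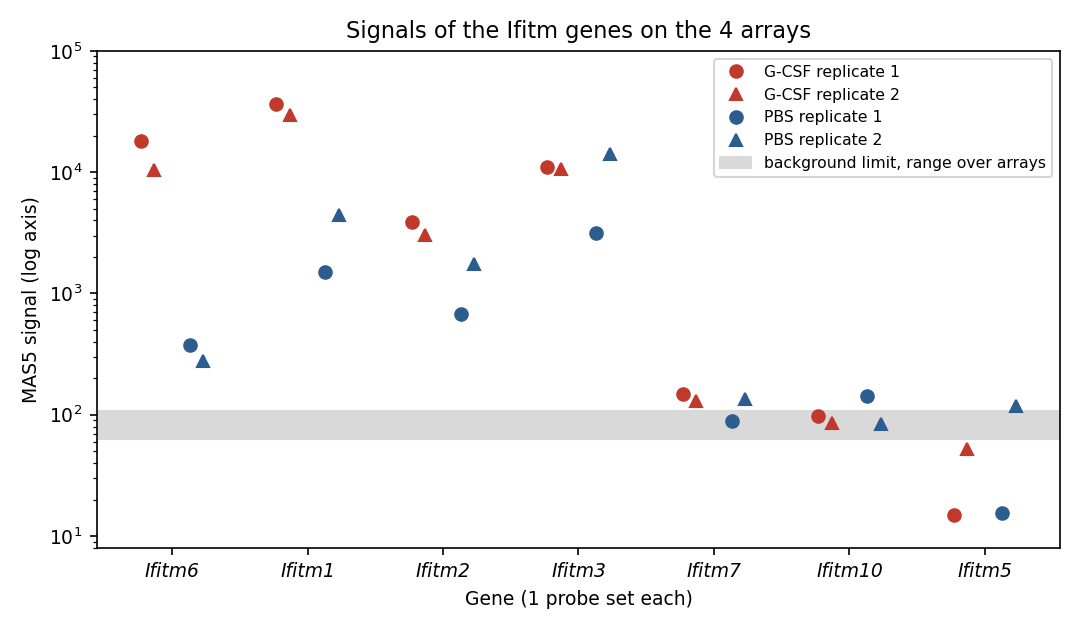
MAS5 signal (log axis) of each Ifitm gene on the 4 arrays, G-CSF in red and PBS in blue, 1 point per array and no averaging; the grey band spans the background limits of 63.0 to 106.4. Ifitm6, Ifitm1 and Ifitm2 have both G-CSF points above both PBS points, while the Ifitm3 points with G-CSF, 11017 and 10524, lie between the PBS points.

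In all, 3 of the 4 genes had groups that did not overlap and a rise of 2-fold or more with G-CSF, a pattern seen in 4.04% of the 12187 genes tested, and 0 of the 4 were lower in that way, beside 1.52% of the genes. Because Ifitm6 and Ifitm1 were picked for it, nothing is read from that count. By limma with Benjamini-Hochberg adjustment 0 of the 12187 genes passed (0% higher and 0% lower), and 429 had an unadjusted p below 0.05, 3.13% of genes higher and 0.386% lower. For a single gene, 2 arrays against 2 allow an exact two-sided permutation p of 0.333 at the smallest.

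The members differed in how far they moved within the same arrays. The log2 ratio of Ifitm1 to Ifitm2 was 3.23 and 3.29 with G-CSF and 1.11 and 1.33 with PBS, so that Ifitm1 changed by 2.04 ± 0.11 more than Ifitm2 (SE over arrays, n = 2 per group). This gap was nearly the same against PBS replicate 1 (2.15) and PBS replicate 2 (1.93), although each gene's own difference was not. Ifitm6 changed by 4.61 ± 1.32 more than Ifitm3, a gap of 3.34 against PBS replicate 1 and 5.89 against PBS replicate 2. It changed by 1.63 ± 1.01 more than Ifitm1, a gap of 0.66 against PBS replicate 1 and 2.61 against PBS replicate 2. Because Ifitm6 and Ifitm1 were picked for their rise, nothing is read from their larger change than that of Ifitm2 and Ifitm3. Ifitm2 changed by 0.94 ± 0.43 more than Ifitm3 (exact permutation test, two-sided p = 0.333, the smallest this design allows). These are ratios of change, and the signal levels of different probe sets are not compared. The family members are similar in sequence, and how far each probe set also binds a relative's transcript was not tested.

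The remaining Ifitm genes had signals near or below the background limit. Ifitm5 had signals of 15.0 and 52.5 with G-CSF and 15.5 and 119 with PBS, and only PBS replicate 2 lay above its background limit. Ifitm7 had signals of 149 and 129 with G-CSF, against 88.4 and 134 with PBS, a difference of 0.29 ± 0.42. Ifitm10 had signals of 97.7 and 85.8 with G-CSF, against 144 and 84.4 with PBS, a difference of -0.23 ± 0.46. Ifitm5 lay below the filter on low values, and the other two did not pass (limma adjusted p = 0.988 for each).

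The promoters of the 4 genes are shown because interferon acts on interferon-induced genes through the interferon-stimulated response element (ISRE). Each RefSeq window (GRCm38.p6) runs from 250 bases before the transcription start to 50 after it, 5′ to 3′ along the gene. The windows are chr7:141016843-141017142 (- strand) for Ifitm6, chr7:140967826-140968125 (+ strand) for Ifitm1, chr7:140955912-140956211 (- strand) for Ifitm2 and chr7:141010695-141010994 (- strand) for Ifitm3. Capitals mark the ISRE letters, GAAA followed by any 2 bases and GAAA again, searched on both strands.
Ifitm6: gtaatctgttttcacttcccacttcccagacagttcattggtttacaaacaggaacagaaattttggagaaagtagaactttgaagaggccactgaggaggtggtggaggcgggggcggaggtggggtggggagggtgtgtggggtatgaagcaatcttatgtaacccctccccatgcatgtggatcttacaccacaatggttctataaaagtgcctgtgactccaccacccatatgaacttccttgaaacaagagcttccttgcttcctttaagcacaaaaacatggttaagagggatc
Ifitm1: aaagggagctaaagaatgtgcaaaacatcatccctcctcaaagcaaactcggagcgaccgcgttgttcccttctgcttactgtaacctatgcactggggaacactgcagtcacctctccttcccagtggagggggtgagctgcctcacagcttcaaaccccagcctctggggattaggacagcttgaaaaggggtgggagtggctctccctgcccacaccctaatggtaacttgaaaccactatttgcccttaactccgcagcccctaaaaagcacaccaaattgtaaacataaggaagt
Ifitm2: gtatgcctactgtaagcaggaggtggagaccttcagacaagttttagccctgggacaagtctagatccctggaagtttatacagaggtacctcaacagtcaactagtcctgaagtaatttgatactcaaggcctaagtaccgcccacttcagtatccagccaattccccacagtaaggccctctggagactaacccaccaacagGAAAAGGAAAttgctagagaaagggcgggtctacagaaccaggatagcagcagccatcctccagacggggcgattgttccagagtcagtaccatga
Ifitm3: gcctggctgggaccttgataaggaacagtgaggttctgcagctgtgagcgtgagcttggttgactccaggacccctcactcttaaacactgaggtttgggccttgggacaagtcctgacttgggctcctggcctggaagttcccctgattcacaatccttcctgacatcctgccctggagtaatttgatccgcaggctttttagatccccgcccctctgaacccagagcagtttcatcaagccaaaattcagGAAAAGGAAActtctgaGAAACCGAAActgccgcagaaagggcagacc

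The ISRE letters occurred once in the Ifitm2 window, 46 bases before the start, and at 2 places in the Ifitm3 window, 3 and 20 bases into the transcript. The first copy in Ifitm3 and the copy in Ifitm2 had the same letters, GAAAAGGAAA, and the other copy in Ifitm3 read GAAACCGAAA. The Ifitm6 and Ifitm1 windows held none. Because these 2 genes were picked for their rise, nothing is read from setting the letters beside the sizes of the differences. Over 32851 windows of 27025 mouse genes, 3.44% held the letters. The letters of the gamma-activated site (GAS, TTCNNNGAA) occurred in the Ifitm6 window, 10 bases before the start, and in the Ifitm3 window, where they overlap an ISRE match, against 8.30% of all windows. The C/EBP letters TTNNGNAA, a loose form of the site of a factor family of granulocyte genes, occurred as TTATGTAA in the Ifitm6 window, 93 bases before the start, and in the Ifitm3 window, overlapping an ISRE match, against 40.7% of all windows. The PU.1 letters GAGGAA were in none of the 4 windows, against 28.3% of all windows. These matches describe letters only, and no binding was measured.

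As a group, the interferon-stimulated genes were centred near 0. Ifitm6 and Ifitm1 were picked for their rise, so nothing is read from their distance to this list. Of 35 listed genes 31 were tested, and their median difference was -0.03, beside 0.07 over all genes tested. 0 passed the adjusted limma test. In the same fit 2 had an unadjusted p below 0.05, both lower with G-CSF, beside 0.386% of all genes lower and 3.13% higher. Groups did not overlap for 4 genes that were higher and 8 that were lower, where 18.6% and 12.1% of all genes did so. The differences ran from -1.28 to 0.93, so all 31 lay below the 1.63 of Ifitm2, and 3 lay above the 0.69 of Ifitm3. The count above Ifitm3 rests on the PBS array, being 0 of 31 against PBS replicate 1 and 16 of 31 against PBS replicate 2, while 0 lay above Ifitm2 against either. The sign of the median depended on the PBS array, being 0.28 against PBS replicate 1 and -0.37 against PBS replicate 2.

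Ifit3, a cytoplasmic antiviral protein, had signals of 241 and 284 with G-CSF, against 580 and 765 with PBS, a difference of -1.28 ± 0.34. Ifit2, its relative, had signals of 582 and 498 with G-CSF, against 1510 and 864 with PBS, a difference of -1.05 ± 0.40. Both lay lower on each G-CSF array than on each PBS array, the opposite order to Ifitm2. Irf7, the transcription factor that amplifies type I interferon production, had signals of 657 and 838 with G-CSF, against 868 and 2105 with PBS (difference -0.85 ± 0.51). Its highest signal by far was that of PBS replicate 2. Samd9l, an antiviral protein, had the highest difference of the list, 0.93 ± 0.36, with signals of 4134 and 3518 with G-CSF, against 1638 and 2428 with PBS. Bst2, tetherin, which holds budding virus at the cell surface, had signals of 526 and 447 with G-CSF, within the 400 and 992 with PBS. Gbp3, a guanylate-binding protein, had signals of 596 and 906 with G-CSF, against 2045 and 1089 with PBS. Of the list genes with a promoter window, 14 of 25 held the ISRE letters in at least 1 window, 56.0% beside 3.99% of all genes with a window.

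**Figure D2:**
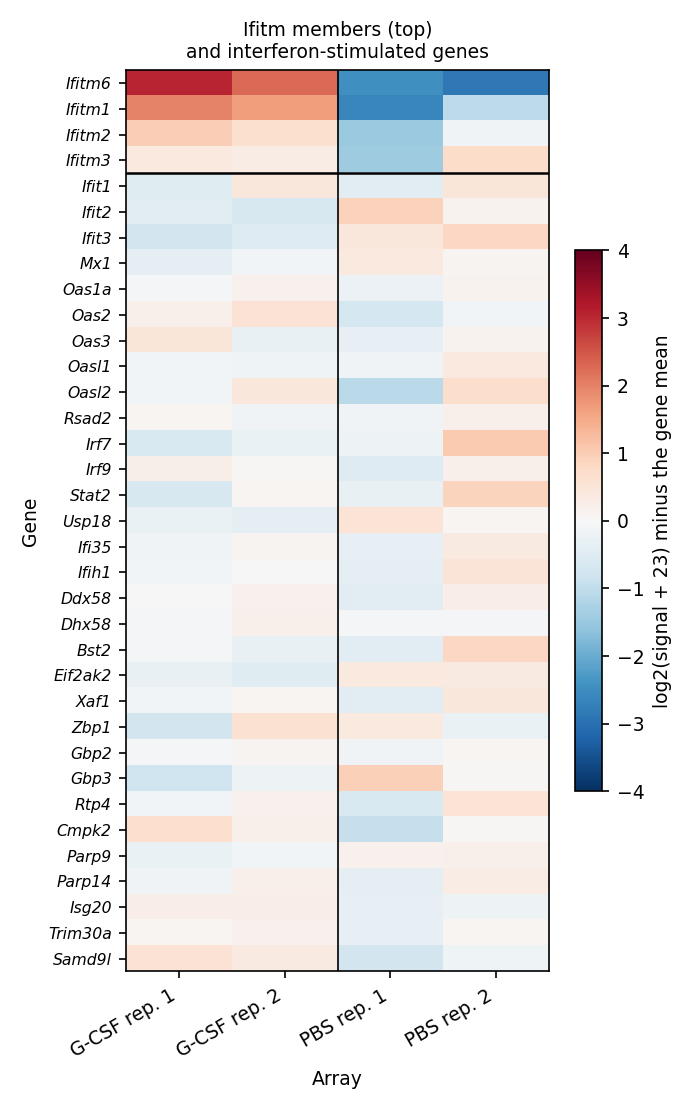
Heatmap of log2(signal + 23) minus each gene's mean over the 4 arrays, with arrays in columns (G-CSF left, PBS right) and genes in rows, the 4 Ifitm members above the line and 31 interferon-stimulated genes below it. Ifitm6 and Ifitm1, picked for their rise, are high on both G-CSF arrays. The interferon-stimulated genes, with differences of -1.28 to 0.93, show no common order of the groups.

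The receptors and transducers that carry an interferon signal were 11 genes tested, of which 0 passed, and their median difference was 0.30. Ifnar1, a chain of the type I interferon receptor, had signals of 924 and 971 with G-CSF, against 988 and 1273 with PBS (difference -0.24 ± 0.33). Ifngr1, the ligand-binding chain of the interferon gamma receptor, had signals of 2184 and 1954 with G-CSF, against 2425 and 2213 with PBS (difference -0.16 ± 0.32). Both receptor chains were slightly lower on each G-CSF array than on each PBS array. Ifnlr1, the chain specific to interferon lambda, had the largest difference, 1.36 ± 0.40, with signals of 534 and 590 with G-CSF, against 151 and 276 with PBS. Ifnar2 had a difference of 0.94 ± 0.65, Il10rb of 0.85 ± 0.45 and Ifngr2 of 0.57 ± 0.32. Of the 11, 5 were higher and 2 lower with groups that did not overlap, beside 18.6% and 12.1% of all genes.

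Genes whose products modify or bind IFITM proteins were centred near 0 as well. Of 9 genes tested 0 passed, and the median difference was 0.03. Zmpste24, a membrane protease needed for full IFITM activity, differed by 0.41 ± 0.49, Cd9, a tetraspanin, by 0.54 ± 0.46, and Vcp, an ATPase that handles ubiquitinated proteins, by -0.22 ± 0.31. Zdhhc20, a palmitoyltransferase, differed by -0.05 ± 0.41, and Nedd4, a ubiquitin ligase that marks Ifitm3 for turnover, by 0.03 ± 0.40 (both named after their values were seen). These differences were about as large as their standard errors or smaller. Cr2, a complement receptor of B cells, had the highest value of the list, 1.42 ± 0.52, with signals of 200 and 189 with G-CSF, against 33.2 and 94.7 with PBS. Among other genes with the CD225 domain of the IFITM proteins, 1 of 5 on the array was tested, and 4 lay below background on every array. The tested one, Prrt1, differed by -0.42 ± 0.61.

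Neutrophil transcripts were also far higher with G-CSF. This list was included because its markers moved with G-CSF in earlier results of these data. The number of its markers that rose is therefore a description, and nothing is read from it. All 18 neutrophil markers tested had groups that did not overlap and a 2-fold or larger difference upwards with G-CSF, beside 4.04% of all genes, with a median difference of 4.83 (4.37 against PBS replicate 1 and 4.95 against PBS replicate 2). The summed signal of the 18 markers was 313643 and 268668 with G-CSF, against 27616 and 9643 with PBS; 2 of them lay below background on both PBS arrays, and 0 did so on all 4 arrays. The 5.30 of Ifitm6 exceeded 11 of the 18 markers, the 3.67 of Ifitm1 exceeded 2, the 1.63 of Ifitm2 exceeded 1 and the 0.69 of Ifitm3 exceeded 0. Against PBS replicate 1 alone Ifitm6 exceeded 13, Ifitm1 10, Ifitm2 2 and Ifitm3 1 of them, and against PBS replicate 2 alone these counts were 10, 1, 0 and 0. Csf3r, the G-CSF receptor, had signals of 3302 and 3496 with G-CSF, against 167 and 265 with PBS. In these bulk samples more neutrophils and more Ifitm RNA per cell cannot be told apart, and the part of the neutrophil transcripts in the Ifitm differences was not tested. Monocyte markers had a median difference of 1.71 over 7 genes, of which 5 met the same criterion. F13a1, the factor XIII A chain, was the highest of them at 3.70 ± 0.64, and 1 of the 7 exceeded Ifitm1. Platelet and megakaryocyte markers had a median difference of 1.34 over 8 genes. Of these, 5 met the criterion and 6 were higher with groups that did not overlap, beside 4.04% and 18.6% of all genes. Their summed signal was 14583 and 6696 with G-CSF, against 3681 and 4810 with PBS, and 2 of the 8 lay below background on both PBS arrays. Of 2 examples picked after their values were seen, Ppbp, a platelet chemokine, had signals of 4489 and 280 with G-CSF, against 109 and 159 with PBS. Pf4, another platelet chemokine, had signals of 5500 and 4133 with G-CSF, against 2707 and 3002 with PBS. The part of monocyte and platelet transcripts in the Ifitm differences was not tested.

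**Figure D3:**
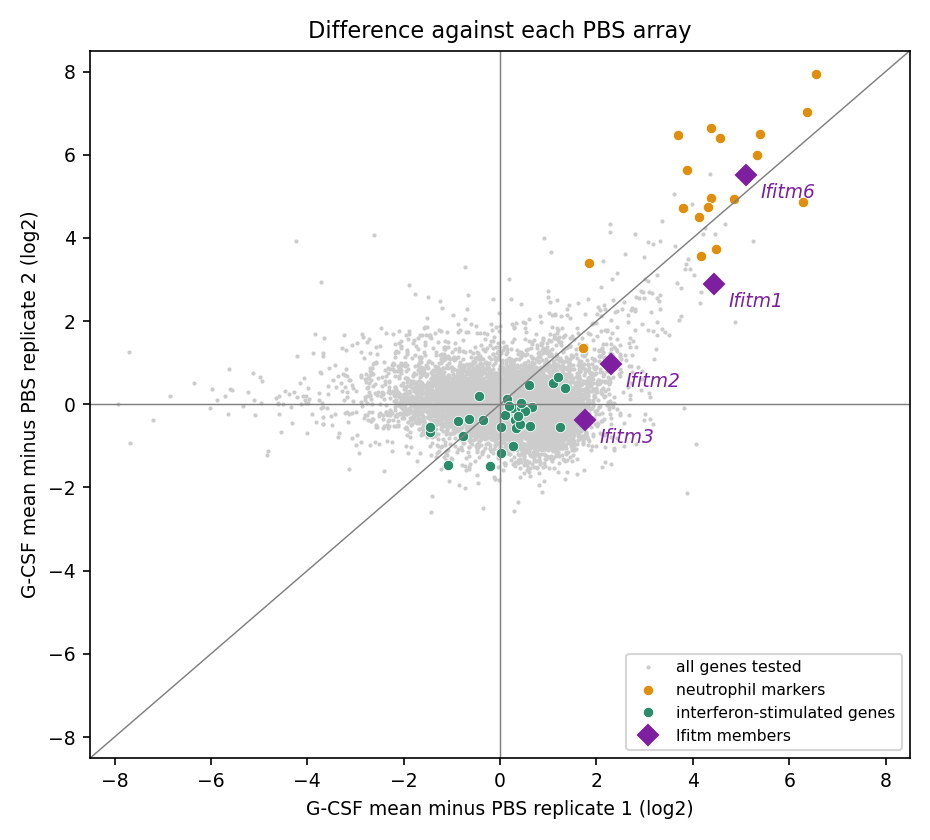
Difference of the G-CSF mean from PBS replicate 1 (x axis) and from PBS replicate 2 (y axis), both log2, for the 12187 genes tested in grey, 18 neutrophil markers in orange, 31 interferon-stimulated genes in green and the Ifitm members as purple diamonds; the axes share the G-CSF arrays. Ifitm6 (5.10 and 5.50) lies among the neutrophil markers near the diagonal, while Ifitm1, Ifitm2 and Ifitm3 lie below it and Ifitm3 has a negative y value.

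PBS replicate 1 was unlike the remaining arrays, and it was the low array for Ifitm1, Ifitm2 and Ifitm3. Over the genes tested it correlated at 0.813 to 0.844 with the other arrays, and the others at 0.939 to 0.974 with each other. These 3 Ifitm genes were at least 2-fold lower there than on all other arrays, as were 9.17% of the genes tested. The log2 difference of PBS replicate 1 minus PBS replicate 2 was -2.14 for Ifitm3, -1.54 for Ifitm1 and -1.33 for Ifitm2, but 0.41 for Ifitm6, beside a median of -0.16 over all genes. For Ifitm3 it was lower than for each of the 31 interferon-stimulated genes, whose median was -0.55. Medians of the same kind were -1.49 for Kupffer cell markers (5 genes), -1.33 for hepatocyte markers (8 genes), -1.25 for endothelial markers (7 genes), -1.07 for B cell markers (7 genes) and -0.77 for stellate cell markers (8 genes). The median was -0.79 for monocyte markers (7 genes) and -0.42 for platelet and megakaryocyte markers (8 genes). Neutrophil and T cell markers went the other way. The neutrophil median was 0.67 over 18 genes, of which 14 lay above 0 and 4 below. The T cell median was 4.44 over 8 genes. T cell markers had a summed signal of 3118 and 1641 with G-CSF, against 19049 and 1986 with PBS. Hepatocyte markers summed to 272765 and 266175 with G-CSF, against 179803 and 309595 with PBS. Hepatocyte RNA was thus abundant in these samples, whose labels name both marrow-derived cells and liver tissue. The ratio of 3' to 5' signal of Gapdh was 20.2 and 19.1 with G-CSF, against 15.7 and 14.8 with PBS. That of Actb was 12.6 and 13.7 with G-CSF, against 11.2 and 9.9 with PBS. The share of RNA integrity and of the amplification in these ratios was not tested. The part of these differences in the Ifitm values was not tested.

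The genes with the profile closest to each member, by Euclidean distance of centred log2 values over the 4 arrays, differed from one member to the next. For Ifitm6 they were Chil3 (distance 0.46), Pglyrp1 (0.61), Mmp8 (0.69), Ceacam10 (0.71) and Cd177 (0.82). For Ifitm1 they were Mapk13 (0.31), Alox5ap (0.40), F13a1 (0.51), Clec4e (0.52) and Il1r2 (0.61). Closer matches existed for Ifitm1 than for Ifitm6, and closer ones still for the other two members. For Ifitm2 they were Ncf4 (0.11), Btk (0.13), Zbtb42 (0.13), Sgms2 (0.14) and Syk (0.18). For Ifitm3 they were Kif1b (0.05), Tbx3 (0.09), Gdf10 (0.10), Hgd (0.11) and Blvrb (0.11).

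The closest profiles show how the members part. Chil3, a chitinase-like protein, had signals of 26356 and 18609 with G-CSF, against 528 and 323 with PBS, with PBS replicate 1 the higher PBS array as for Ifitm6. Alox5ap, the 5-lipoxygenase activating protein, had signals of 17692 and 13448 with G-CSF, against 849 and 2830 with PBS, with PBS replicate 1 the lower one as for Ifitm1. Ncf4, a cytosolic subunit of the phagocyte NADPH oxidase, had signals of 2883 and 2493 with G-CSF, against 519 and 1394 with PBS. In this pair, too, the lower PBS array was replicate 1. Kif1b, a kinesin motor, had signals of 2637 and 2583 with G-CSF, against 772 and 3525 with PBS, and so was highest in PBS replicate 2, as Ifitm3 was. Distances between members were 2.17 for Ifitm6 and Ifitm1, 2.05 for Ifitm1 and Ifitm2, 1.12 for Ifitm2 and Ifitm3, and 4.98 for Ifitm6 and Ifitm3. Ifitm1 was number 37 in closeness to Ifitm6, and Ifitm2 was number 130 in closeness to Ifitm1. Ifitm3 was number 962 in closeness to Ifitm2 and number 2391 in closeness to Ifitm6. In each of these pairs other genes lay nearer than the relative did, also where the distance itself was small. With 4 arrays these distances describe the arrays at hand, and they include the difference by which Ifitm6 and Ifitm1 were chosen.

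Genes flanking the Ifitm cluster on mouse chromosome 7 had smaller mean differences than Ifitm2. They were also smaller than those of Ifitm6 and Ifitm1, but these 2 genes were picked for their rise, so nothing is read from that. In the RefSeq gene order the cluster runs Ifitm5, Ifitm2, Ifitm1, Ifitm3, Ifitm6. Of the 12 protein-coding genes on its flanks, 6 on each side, 10 were tested, and their differences ran from -0.21 to 0.75. 0 of the 10 were at least 2-fold apart with no overlap, where 4.04% of all genes were so higher and 1.52% lower, and 3 were higher with no overlap, beside 18.6% of all genes. Pgghg, next to Ifitm5, had signals of 329 and 352 with G-CSF, against 261 and 297 with PBS (difference 0.27 ± 0.33). B4galnt4, next to Ifitm6, had signals of 186 and 192 with G-CSF, against 213 and 59.7 with PBS (difference 0.60 ± 0.60). Both flanking values were within about 1 standard error of 0. Against PBS replicate 2 alone B4galnt4 differed by 1.36, more than the 0.96 of Ifitm2, and against PBS replicate 1 alone it differed by -0.16. Sigirr, an inhibitor of interleukin-1 and Toll-like receptor signalling, differed by 0.11 ± 0.34, and Rnh1, the ribonuclease inhibitor, had the highest flanking mean difference, 0.75 ± 0.49, which was 1.33 against PBS replicate 1 alone and 0.17 against PBS replicate 2 alone. Within the cluster the order of the differences did not follow the order of the genes, since Ifitm3, at 0.69, lies between Ifitm1 and Ifitm6.

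**Figure D4:**
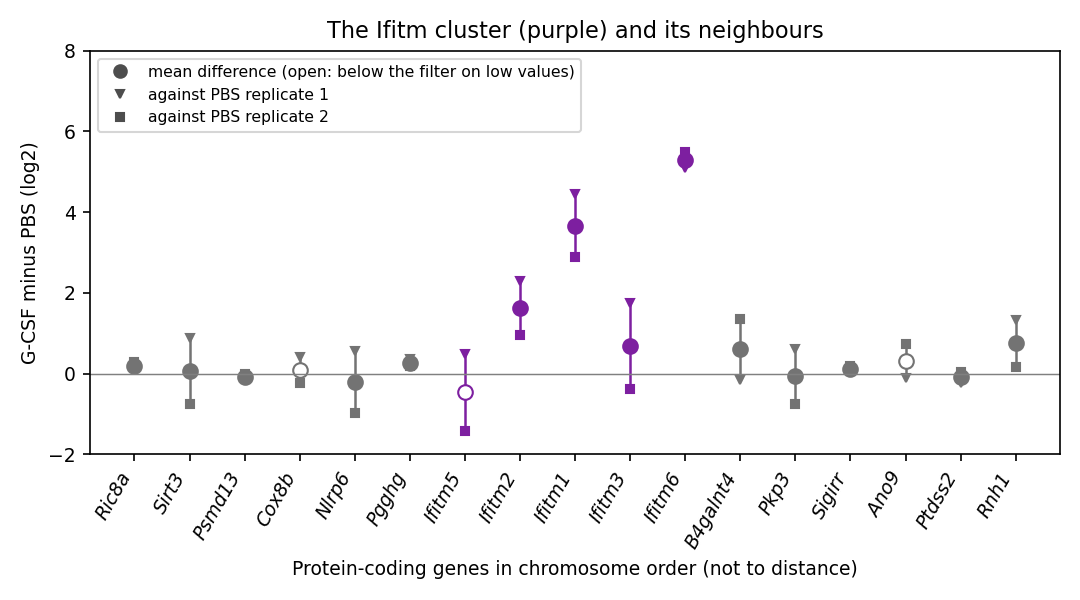
Log2 difference of G-CSF minus PBS for 17 protein-coding genes in their order on chromosome 7 (spacing not to scale), with circles for the mean difference, triangles against PBS replicate 1, squares against PBS replicate 2, and open circles for genes below the filter on low values. The mean difference of Ifitm2 stands above those of the tested flanking genes, which span -0.21 to 0.75. Those of Ifitm6 and Ifitm1, picked for their rise, do so too.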

How the data were processed

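Total RNA of 4 samples was hybridised to 4 one-colour Affymetrix mouse arrays of 45101 probe sets, after amplification of 40 ng with a 3' IVT kit, per the labels' protocols. The authors deposited 1 intensity per probe set, a linear MAS5 signal per the submitters' processing notes (version not given in the sources used here). Each array had a 2% trimmed mean of 500, so the authors' scaling was kept. 0 columns were without a sample. The precision is limited by the number of arrays.

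Probe sets were named from the platform table: 34945 listed 1 gene, 932 several and 9160 none, and 64 were controls. For each of 18193 genes the probe set of highest mean signal was used. Values were taken as log2(signal + 23), the pseudocount being the median of all values divided by 4. Genes whose mean signal exceeded the median of the non-control probe sets, 12187 in number, were fitted with limma 3.58.1 in R 4.3.3 (lmFit, eBayes with a trend, two-sided), and p-values were adjusted by Benjamini-Hochberg (threshold 0.05). This left 2 residual degrees of freedom. The procedure was tested on simulated data with the same spread in both groups. That test does not cover the unequal spread of the PBS and G-CSF arrays. The background limit of an array was the highest signal among 27 control probe sets for bacterial sequences. Motif letters were searched in the RefSeq promoter windows of GRCm38.p6. Figures were drawn with matplotlib 3.10.9.

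The members, the gene lists and the tests were chosen with earlier results of these data known. Ifitm6 and Ifitm1 were picked for their rise and have no test. Named genes were all Ifitm genes, up to 4 genes per list with the smallest p, a fixed few (Irf7, Isg15, Bst2, Csf3r, Ifnar1, Ifngr1), the 6 protein-coding neighbours on each side of the Ifitm cluster, and the 5 genes closest to each member in profile. Isg15 and Ifi44 are not analysed here. Alternatives were quantile normalization, median centring, other pseudocounts and filters, other variance models, other choices of probe set, the replicate number as a block, and each array left out. Same-numbered samples did not deviate together (Pearson r of the deviations, -0.04 across 12187 genes, which are not independent), and the labels tie the numbers to no shared animal or day.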

Additional observations from a re-analysis of the deposited data

How the results depend on the processing

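For Ifitm6 and Ifitm1, the 11 alternatives with all 4 arrays gave differences of 5.04 to 5.39 and of 3.61 to 3.70. Without 1 array the differences ran from 4.91 to 5.69 and from 2.90 to 4.44. With 2 arrays per group, leaving 1 out cannot move a difference by more than the spread between replicates. Nor can it reverse the direction of a gene whose groups do not overlap. The fits without 1 array are therefore no check of these 2 genes. For Ifitm2 the 11 settings with all 4 arrays gave 1.56 to 1.65, and leaving out 1 array gave 0.96 to 2.29; for Ifitm3 they gave 0.63 to 0.73 and -0.38 to 1.76. Ifitm3 reversed to -0.38 without PBS replicate 1, and both genes passed the threshold without PBS replicate 2, in a fit whose spread is that of the G-CSF pair alone. Each fit without 1 array assumes that the lone array of its group varies like the other group's pair, although the pooled SD was 0.29 with G-CSF and 0.82 with PBS. The number of genes called was 0 as reported and in 9 of the 11 alternatives that use all 4 arrays, 11 with specific probe sets only and 92 with a replicate block (89 higher, 3 lower). It was 516 without PBS replicate 1, 4689 without PBS replicate 2, 6 without G-CSF replicate 1 and 22 without G-CSF replicate 2. The cause was not tested. With the replicate block the adjusted p was 0.468 for Ifitm2 and 1.00 for Ifitm3, so it changed neither call. The median of the interferon-stimulated genes ran from -0.37 to 0.28 with 1 array left out; it changed sign with the 75th percentile filter (0.01 over 24 genes), without G-CSF replicate 1 (0.08) and without PBS replicate 2 (0.28). The neutrophil median was 5.09 with a pseudocount of 1, 4.53 with 4 times the main one, and 4.37 to 4.95 with 1 array left out. The few arrays limit every test here, and signals near the background limit, as for Ifitm5, Ifitm7 and Ifitm10, give no reliable difference.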
